A study of Mus musculus with 6 samples.

Results

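The scaffolds of the postsynaptic density were examined in hippocampal RNA-seq libraries through the 10 genes of the Dlg, Shank and Homer families: Dlg1 to Dlg4, Shank1 to Shank3 and Homer1 to Homer3. They were taken by symbol from the 55471 genes of the deposited table of counts, and all 10 were detected in every library and entered the test with 32773 genes in all. The 6 libraries came from male mice of the strain C57BL/6 (C57BL/6J per the methods), 3 to 6 months old, that had all been given tamoxifen (20 mg/ml, in oil) 5 times. In the 3 p300-ifKO mice (ifKO, inducible forebrain knockout), floxed Ep300 was recombined by creERT2 under the Camk2a promoter, and the 3 Control mice were littermates without creERT2 per the protocol, although Camk2a_creERT2 stands in the description of each of them too. Each library held RNA of the hippocampus of 1 mouse. The driver acts in excitatory forebrain neurons, the methods state that the mutant mice still express a truncated p300 protein, and glia and interneurons of the same tissue keep the intact gene. In such bulk tissue, fewer cells of a type and less RNA per cell cannot be told apart.

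The postsynaptic density is the protein mesh under the membrane of an excitatory synapse. Dlg proteins, membrane-associated guanylate kinases whose founding synaptic member is PSD-95, hold glutamate receptors and adhesion molecules through PDZ domains. Shank proteins lie deeper and tie the Dlg layer, through SAPAP linker proteins, to Homer and to actin. Homer proteins bind proline-rich motifs of Shank, of group I metabotropic glutamate receptors and of calcium release channels on internal membranes. Mutations of Shank and Dlg genes are known in autism and intellectual disability. Whether loss of p300 in adult excitatory neurons alters hippocampal transcript levels is the question the comparison addresses.

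None of the 10 scaffold genes differed between p300-ifKO and Control hippocampus beyond the spread between mice. The fold change was below 0 on the log2 scale for 9 genes and above 0 for Homer3, from -0.35 for Shank1 to 0.08 for Homer3. With all 6 libraries, the 95% interval of every gene left out a change of 2-fold in either direction. Without p300-ifKO replicate 2 this no longer held for Shank1, which was then at -0.71 (SE 0.15). The spread was uneven: in p300-ifKO mice Shank1 and Shank2 varied more than 2-fold between mice, whereas Dlg3, Dlg4 and Homer3 varied little. The order of the p300-ifKO mice was largely shared. In all 10 genes p300-ifKO replicate 2 was above p300-ifKO replicate 1, and in 9 of them replicate 3 lay between these. For Homer3, replicates 1 and 3 were almost level. This order was not particular to the scaffolds: the median gene of every length class above 4000 bases had it, and that of every class below had the reverse. The share of single genes with this order was not taken.

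Total counts were between 23151568 and 28433823 per library. The targeted gene, Ep300, had 1545, 1474 and 2334 normalized counts (counts divided by the size factor of the library) in Control mice and 478, 1350 and 912 in p300-ifKO mice. All 3 p300-ifKO mice lay below all Control mice, although replicate 2 did so narrowly (log2 fold change -0.97, SE 0.33, unadjusted p = 0.00369 and adjusted p = 0.991 in DESeq2, adjusted p = 0.745 in edgeR). Its paralog Crebbp differed by -0.05 (SE 0.11), and Esr1, whose ligand-binding domain is part of creERT2, had 87.2 to 109 normalized counts in Control mice and 2416 to 4217 in p300-ifKO mice. Libraries stood apart in ways that touch the scaffolds. Differences followed exonic length: relative to the mean of the 6 libraries, the median log2 ratio of a library ran, from genes of up to 1000 bases to genes over 12000 bases, from 0.41 to -0.41 in p300-ifKO replicate 1, from -0.16 to 0.16 in p300-ifKO replicate 2 and from -0.13 to 0.27 in Control replicate 3. p300-ifKO replicate 1 was the lowest library for 80.3% of the 2011 genes over 9000 bases, against 37.8% of all genes with a mean above 10 normalized counts. Leaving out p300-ifKO replicate 2 raised the number of genes called from 2 to 938, and the fold changes and calls without it are given below. In 7 lists of cell type markers, every marker had a mean above 10 normalized counts and none was called, against 0.0061% of all genes tested. The summed excitatory neuron markers ranged from 80069 to 88035 normalized counts in Control mice and from 81560 to 90325 in p300-ifKO mice. Choroid plexus markers summed to 726 to 3731 in Control mice and 1368 to 5426 in p300-ifKO mice, highest in replicate 3 of each group. All 4 of them had a fold change above 0 (median 0.41). Oligodendrocyte markers summed to 105543 to 143687 and 114366 to 146450, with 5 markers higher and 1 lower. Summed markers did not overlap between the groups for microglia (6286 to 6797 in Control, 6962 to 7896 in p300-ifKO) and for astrocytes (41315 to 43535 in Control, 38984 to 39904 in p300-ifKO). The single markers were mixed in direction, with 4 higher and 2 lower for microglia and 2 higher and 4 lower for astrocytes. Of single genes tested, 6.64% did not overlap between the groups. The part of any of these lists in the scaffold values was not tested.

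Levels between genes were compared as normalized counts per kilobase of exonic length. That length joins the exons of all isoforms of a gene, whichever are expressed, so the order of levels depends on it. Dlg4 was the most abundant scaffold, with a level of 1419 ± 37.5 in Control mice and 1332 ± 60.2 in p300-ifKO mice (SD, n = 3). Dlg3 followed with 1015 ± 23.2 and 990 ± 65.2, and Shank1 with 1043 ± 53.1 and 820 ± 334. Averaged over the 6 libraries, the order of levels was Dlg4, Dlg3, Shank1, Shank3, Dlg2, Shank2, Homer3, Dlg1, Homer1 and Homer2. By the Control means alone, Shank1 was above Dlg3 and the order was otherwise the same. The ranges over the 6 libraries separated Dlg4 from Dlg3 and Dlg1 from Homer1, while the other 7 of the 9 neighbouring pairs overlapped. At the middle of the order, Shank3 had 625 ± 33.7 and 557 ± 135, Dlg2 had 483 ± 23.3 and 402 ± 68.2, and Shank2 had 464 ± 33.5 and 370 ± 135 normalized counts per kilobase in Control mice and p300-ifKO mice, respectively. The lowest level was that of Homer2, at 151 ± 36.4 and 124 ± 33.3. Among all genes with a mean above 10 normalized counts, the levels ran from percentile 95.9 for Dlg4 to percentile 57.1 for Homer2, so every scaffold was above the median gene of the hippocampal libraries.

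**Figure D1:**
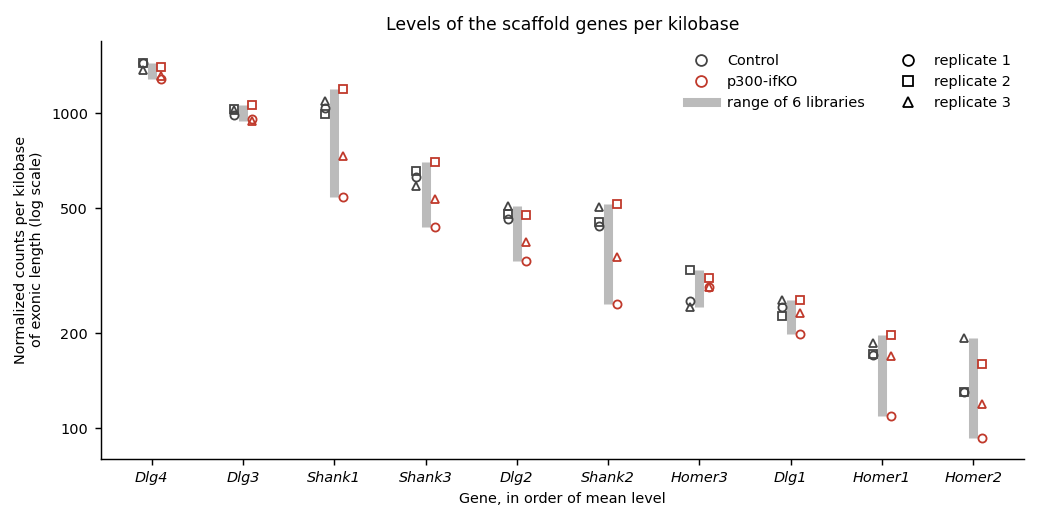
Levels of the 10 scaffold genes, in normalized counts per kilobase of exonic length on a log axis, in order of their mean. Open symbols are single libraries, grey for Control and red for p300-ifKO with a shape for each replicate, and the grey bar spans the 6 libraries; Dlg4 stands clear above Dlg3, and the bars of Shank1, Shank2, Homer1 and Homer2 are long, with p300-ifKO replicate 1 at their lower end.

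Within a family, the share of each gene was taken from normalized counts per kilobase. Dlg4 made up 44.9% ± 1.27 of the summed Dlg level in Control mice and 45.2% ± 1.23 in p300-ifKO mice (SD, n = 3). Dlg3 made up 32.1% ± 0.53 and 33.6% ± 0.78, Dlg2 15.3% ± 0.70 and 13.5% ± 1.32, and Dlg1 7.64% ± 0.48 and 7.71% ± 0.49. Shank1 made up the largest share of its family, with 48.9% ± 1.5 in Control mice and 46.3% ± 2.76 in p300-ifKO mice. Shank3 held 29.4% ± 2.21 and 32.6% ± 3.21, and Shank2 the rest. Of the Homer level, Homer3 held 45.4% ± 6.13 and 51.0% ± 6.37. This share rests on the exonic length of all isoforms, 3440 bases for Homer3 against 11976 for Homer1 and 12621 for Homer2. In normalized counts not divided by length, Homer1 and Homer2 were above Homer3 in every library, so the share does not name the main Homer transcript. The ranges of the 2 groups overlapped for each of these shares except that of Dlg3, which was 31.5% to 32.5% in Control mice and 32.9% to 34.4% in p300-ifKO mice. Dlg3 is the shortest Dlg gene (5844 bases, against 10736 to 17870), and the shares were not adjusted for the differences that followed exonic length. No background for shares was taken and no test of shares was made.

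Of the Dlg genes, Dlg3 and Dlg4 had the narrowest range over the 6 libraries of all 10 scaffolds and Dlg2 the lowest fold change of its family. Dlg1 (ENSMUSG00000022770, chr16:31663443-31875129, + strand of GRCm38) encodes a scaffold linked to the trafficking of AMPA receptors. It had 2607, 2430 and 2737 normalized counts in Control mice and 2133, 2731 and 2482 in p300-ifKO mice, so the groups overlapped and replicate 1 alone lay under all Control mice. The log2 fold change was -0.08 (SE 0.14, 95% interval -0.36 to 0.19). Dlg2 (ENSMUSG00000052572, chr7:90476672-92449247, + strand), which encodes a paralog of PSD-95 that binds NMDA receptors and potassium channels, had 8270, 8525 and 9083 normalized counts in Control mice and 6072, 8484 and 6977 in p300-ifKO mice. Replicates 1 and 3 were below every Control mouse and replicate 2 was within the Control range. Dlg2 had the smallest unadjusted p of the 10 genes (log2 fold change -0.26, SE 0.15, 95% interval -0.57 to 0.04, unadjusted p = 0.0873 and adjusted p = 0.991 in DESeq2).

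Dlg3 (ENSMUSG00000000881, chrX:100767722-100818410, + strand) is an X-linked gene whose product is prominent at young synapses and whose loss causes intellectual disability. It had 5782, 6043 and 5976 normalized counts in Control mice and 5593, 6226 and 5542 in p300-ifKO mice, and its log2 fold change of -0.04 (SE 0.11, 95% interval -0.25 to 0.17) was the smallest of the 10 in size. Dlg4 (ENSMUSG00000020886, chr11:70016942-70047522, + strand) encodes PSD-95, the most abundant scaffold of the density. It had 19103, 19086 and 18235 normalized counts in Control mice and 17020, 18549 and 17391 in p300-ifKO mice. Although replicates 1 and 3 were again below every Control mouse, the shift was small (log2 fold change -0.09, SE 0.10, 95% interval -0.29 to 0.10).

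Shank1 and Shank2 had the lowest fold changes of the 10 genes and the widest spread between p300-ifKO mice. Shank1 (ENSMUSG00000038738, chr7:44310253-44360572, + strand), a scaffold of mature spines, had 10916, 10427 and 11542 normalized counts in Control mice and 5692, 12512 and 7665 in p300-ifKO mice. Thus the lowest and the highest of the 6 libraries were both from p300-ifKO mice, with 0.519 and 1.14 times the Control mean. The SD was 559 in Control mice and 3509 in p300-ifKO mice, and the log2 fold change was -0.35 (SE 0.26, 95% interval -0.85 to 0.16). Shank2 (ENSMUSG00000037541, chr7:144001928-144424494, + strand), a scaffold with the same domain layout that binds SAPAP and Homer, had 4720, 4865 and 5405 normalized counts in Control mice and 2669, 5546 and 3753 in p300-ifKO mice. Its pattern was almost that of Shank1, with p300-ifKO replicate 1 at 0.534 times the Control mean and replicate 2 above all Control mice (log2 fold change -0.32, SE 0.24, 95% interval -0.80 to 0.16). Shank3 (ENSMUSG00000022623, chr15:89499623-89560261, + strand), whose haploinsufficiency causes a syndromic form of autism in people, had 5809, 6063 and 5443 normalized counts in Control mice and 4013, 6479 and 4930 in p300-ifKO mice. The same order of mice appeared with a narrower spread (log2 fold change -0.17, SE 0.19, 95% interval -0.54 to 0.20).

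The Homer genes lay in the lower part of the order of levels. Homer1 (ENSMUSG00000007617, chr13:93299635-93405129, + strand) gives rise to long forms that cross-link Shank and metabotropic receptors and to a short form, induced by neuronal activity, that lacks the linking coiled coil. A count per gene adds these forms together, so they were not separated here. Homer1 had 2037, 2059 and 2235 normalized counts in Control mice and 1305, 2360 and 2023 in p300-ifKO mice. Replicate 1, at 0.618 times the Control mean, and replicate 3 were below and replicate 2 above every Control mouse (log2 fold change -0.15, SE 0.22, 95% interval -0.58 to 0.27). Homer2 (ENSMUSG00000025813, chr7:81600481-81707527, - strand), a paralog with the same receptor-binding domain, had 1642, 1643 and 2439 normalized counts in Control mice and 1175, 2009 and 1507 in p300-ifKO mice. Here Control replicate 3 was the highest library and spread the Control group (log2 fold change -0.29, SE 0.24, 95% interval -0.76 to 0.18), and without that library the log2 fold change was -0.07. Homer3 (ENSMUSG00000003573, chr8:70282827-70294361, + strand), known for its abundance in cerebellar Purkinje cells, had 873, 1093 and 836 normalized counts in Control mice and 963, 1031 and 965 in p300-ifKO mice. All 3 p300-ifKO mice lay within the Control range (log2 fold change 0.08, SE 0.15, 95% interval -0.22 to 0.38). Of the exonic bases of Homer3, 874 are shared with Ddx49 on the other strand, and since the strand setting of the counting is not stated, its reads there cannot be told from those of Ddx49.

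**Figure D2:**
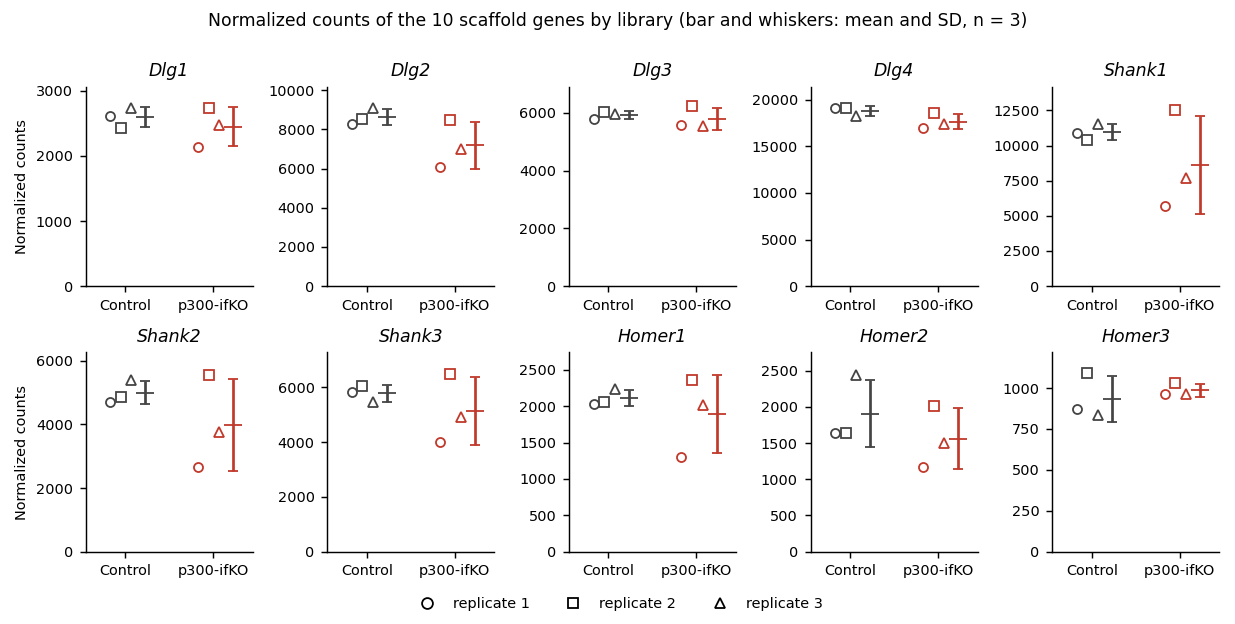
Normalized counts of each scaffold gene in the 3 Control (grey) and 3 p300-ifKO (red) libraries, with the mean and SD beside the points and a linear axis from 0. The groups overlap in all 10 panels, and p300-ifKO replicate 2 (square) is the highest of the mutant mice throughout and replicate 1 (circle) the lowest except for Dlg3, most widely apart for Shank1 and Shank2.

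The two-sided Wald test of DESeq2, adjusted over all 32773 genes, called 0 of the 10 scaffold genes, with an adjusted p of 0.991 for each. The background was 0.0061% of genes called, that is 2 genes, both higher. At an unadjusted p under 0.05, 0 scaffold genes passed against 1.32% of all genes. The edgeR quasi-likelihood test likewise called 0 scaffold genes (adjusted p 0.745 to 0.892), with a background of 0.0117% called, and 0 passed at an unadjusted p under 0.05 against 2.3% of all genes. The groups did not overlap for 0 of the 10 genes, against 6.64% of all genes tested, 3.42% with every p300-ifKO mouse below and 3.21% with every one above. Exact permutation tests on normalized counts, also two-sided, gave p between 0.2 and 0.7, where 3 against 3 mice cannot give less than 0.1. A fold change below 0 for 9 of 10 genes stands beside 54.7% of all genes tested, 50.7% of those with a mean above 10 normalized counts and 87.5% of the latter over 9000 bases, the length class that holds 8 of the scaffolds. Across the 10 intervals, the ratio of p300-ifKO to Control lay between 0.554 (the lower bound of Shank1) and 1.30 (the upper bound of Homer3), and the narrowest interval, that of Dlg4, ran from 0.820 to 1.07.

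The call depended on p300-ifKO replicate 2. Without that library, DESeq2 called Shank1 lower (log2 fold change -0.71, SE 0.15, adjusted p = 0.00325), Shank2 lower (-0.63, SE 0.16, adjusted p = 0.0163) and Dlg2 lower (-0.40, SE 0.13, adjusted p = 0.0333). That is 3 of 10 scaffold genes, where 8.43% of the 11129 genes tested in that fit were called, 4% lower and 4.43% higher. The next in DESeq2 were Shank3 (log2 fold change -0.37, adjusted p = 0.0650) and Homer2 (-0.51, adjusted p = 0.0746). Of the genes of like length, 20% were called lower beside Dlg2, 9.32% beside Shank1 and 10.5% beside Shank2. Without p300-ifKO replicate 1 instead, the log2 fold changes of Shank1 and Shank2 were -0.12 and -0.11, and those of Dlg1 and Homer1 were 0.01 and 0.05. Leaving out any library other than p300-ifKO replicate 2 called no scaffold gene, against 0.00933%, 0.0062% and 0.00633% of all genes without Control replicates 1, 2 and 3, and 0.0062% and 0.00622% without p300-ifKO replicates 1 and 3. Ep300 had the same order of p300-ifKO mice as the Shank genes, lowest in replicate 1 and highest in replicate 2. The median of genes over 12000 bases had it too (log2 ratios -0.41, -0.08 and 0.16 in replicates 1, 3 and 2), and Ep300 has 14273 bases. Less the median of genes of like length, Ep300 was at -0.93, -0.34 and -0.005 in these replicates. Esr1 had the opposite order. The part of Ep300 or Esr1 in these results was not tested.

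**Figure D3:**
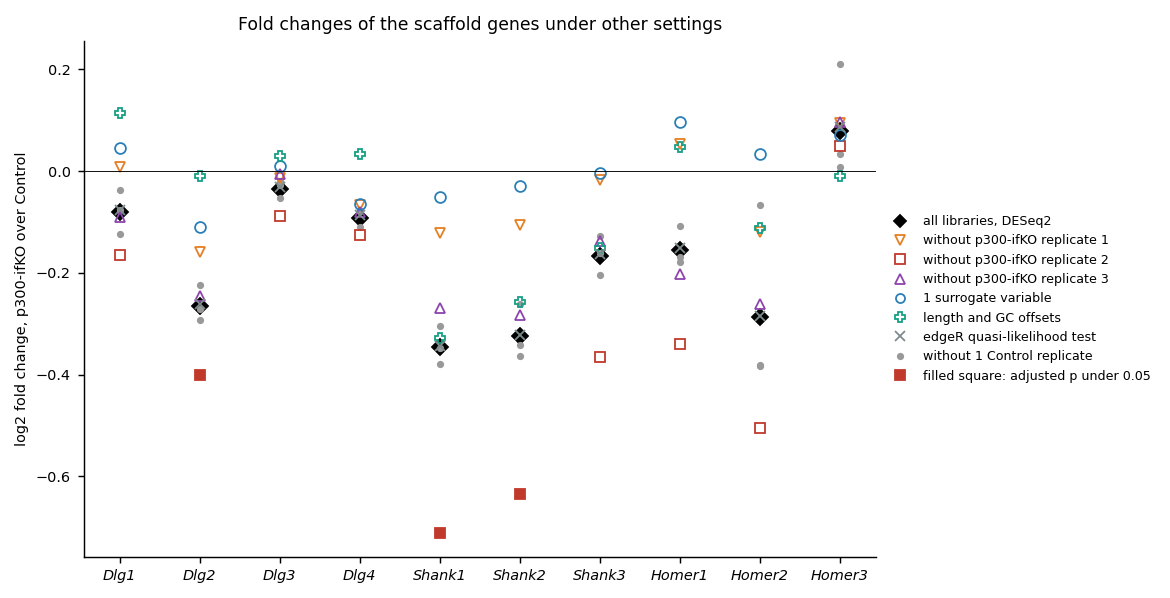
log2 fold change (p300-ifKO over Control) of each scaffold gene with all libraries (black diamond) and under other settings, named in the key. Filled red squares mark an adjusted p under 0.05, which is reached by Dlg2, Shank1 and Shank2 when p300-ifKO replicate 2 is left out, and under no other setting drawn.

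Because differences followed exonic length, each gene was set against the 500 genes nearest to it in exonic length, with a mean above 10 normalized counts and the scaffolds left out. Exonic lengths were 3440 bases for Homer3, 5844 for Dlg3 and 9236 to 17870 for the other 8 genes. The median log2 fold change of the neighbours was 0.05 around Homer3, -0.05 around Dlg3, between -0.14 and -0.18 around the genes of 9236 to 13251 bases and -0.21 around Dlg2. Against these medians, 5 scaffold genes were lower and 5 higher, and 9 of 10 were within the 10th to 90th percentile of their neighbours. Shank1 was just outside, at percentile 9.8 (difference from the median -0.19), and Shank2 was at percentile 12 (difference -0.16). Without p300-ifKO replicate 2, Shank1 was at percentile 4.8 (difference -0.44) and Shank2 at percentile 7 (difference -0.36), so both were then outside, and without p300-ifKO replicate 1 the differences were -0.08 and -0.06. Dlg4, at percentile 76 (difference 0.09), and Dlg1, at percentile 71.8 (difference 0.08), stood highest with all libraries. For Dlg4 the difference was 0.19 without p300-ifKO replicate 2, -0.01 without p300-ifKO replicate 1 and, leaving out Control replicate 3, -0.007, so its sign rested on single libraries, whereas that of Dlg1 stayed between 0.05 and 0.12 with any library left out. Homer1 was at percentile 55.4 and Homer3 at 55.8, Dlg3 at 52.6, Shank3 at 38.8, Dlg2 at 33.4 and Homer2 at 20.2. The neighbours of Dlg1, Shank1 and Shank2 spanned nearly the same lengths (9991 to 11532, 9807 to 11271 and 10024 to 11565 bases), so these positions are not separate readings.

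**Figure D4:**
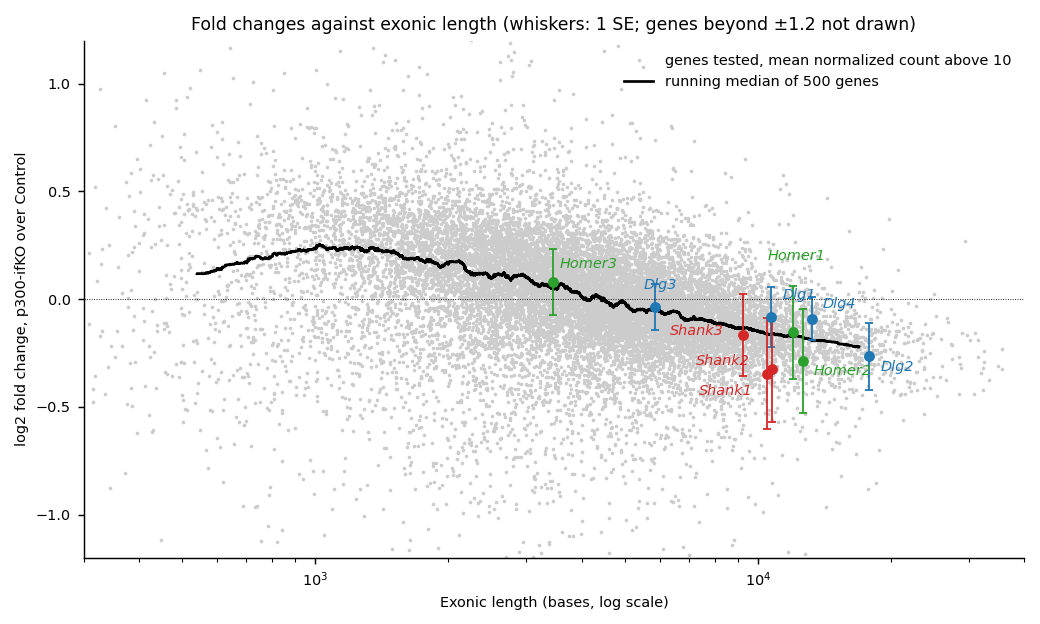
log2 fold change (p300-ifKO over Control) against exonic length on a log axis for genes with a mean above 10 normalized counts (grey), with a running median of 500 genes as a line and the scaffold genes coloured by family with whiskers of 1 SE. The line descends from about 0.20 at 1000 to 2000 bases to -0.20 above 12000 bases, and the scaffolds scatter on both sides of it with Shank1 and Shank2 furthest below.

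By library, subtracting the median of genes of like length narrowed the range over the 6 libraries for 9 of the 10 scaffold genes, from 1.14 to 0.66 for Shank1 and from 0.58 to 0.17 for Dlg2 on the log2 scale, but only from 0.17 to 0.13 for Dlg3 and from 0.39 to 0.33 for Homer3. For Dlg4 it widened the range from 0.17 to 0.52. In p300-ifKO replicate 1, the log2 ratio to the mean of the 6 libraries was -0.73 for Shank1, -0.71 for Shank2, -0.59 for Homer1, -0.53 for Homer2, -0.43 for Shank3 and -0.37 for Dlg2, where the medians of their neighbours were between -0.29 and -0.44. After the median of the neighbours was subtracted, Dlg2 was at 0.07 in that library and Shank3 at -0.14. In p300-ifKO replicate 1, the difference left was largest in size for Shank1 and Shank2. For Shank1 it was 0.17, 0.10 and 0.10 in Control mice and -0.40, 0.26 and -0.24 in p300-ifKO mice. For Shank2 it was 0.08, 0.12 and 0.11 in Control mice and -0.37, 0.20 and -0.15 in p300-ifKO mice. In both genes the 3 Control mice were close together and the p300-ifKO mice lay on both sides of them. Dlg4 showed the opposite sign, with 0.03, 0.04 and -0.24 in Control mice and 0.28, -0.13 and -0.0008 in p300-ifKO mice. Exact two-sided permutation tests of these length-adjusted values gave p between 0.2 and 1 over the 10 genes. The GC content of transcripts differed between members, from 42.0% for Homer1 to 62.5% for Shank1, and against genes of like length and GC content, a comparison chosen after seeing the data, the difference from the median was -0.29 for Shank1 (percentile 6.2), -0.23 for Shank2 (percentile 9) and -0.12 for Shank3 (percentile 22.4). With fold changes from the fit with 1 surrogate variable set against genes of like length, also chosen after seeing the data, the difference was -0.05 for Shank1, -0.03 for Shank2 and -0.07 for Dlg4.

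**Figure D5:**
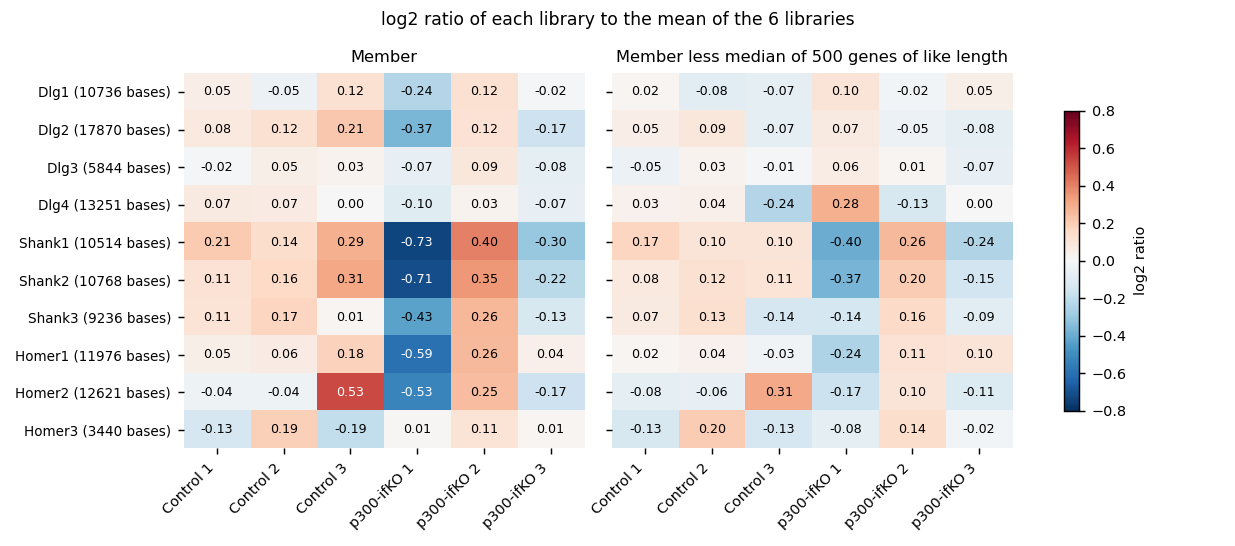
log2 ratio of a library to the mean over 6 libraries for the 10 scaffold genes (left) and the same less the median of 500 genes of like exonic length (right), blue for low and red for high. The column of p300-ifKO replicate 1 is blue for most genes on the left, and on the right blue remains mainly for Shank1, Shank2 and Homer1.

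Fits that absorb shared differences between libraries gave other values. With 1 surrogate variable, the log2 fold changes were -0.05 for Shank1, -0.03 for Shank2 and -0.003 for Shank3, and above 0 for Dlg1, Dlg3, Homer1 and Homer2. That variable was 0.08, 0.05 and 0.50 in Control replicates 1 to 3 and -0.79, 0.31 and -0.14 in p300-ifKO replicates 1 to 3. It thus partly followed the groups, so a fit with it can also take out part of a group difference. With offsets for length and GC content, Shank1 was at -0.33 and Shank2 at -0.26, whereas Dlg2 was at -0.01. Neither fit called a scaffold gene, with backgrounds of 0.00915% and 0.0117%.

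Over the 6 libraries, patterns were compared by the root mean square (RMS) difference of centred log2 values. Dlg3 and Dlg4 were the most alike of the 45 pairs of scaffold genes (RMS 0.05), followed by Shank1 and Shank2 (0.06), and Shank1 and Homer3 were the least alike (0.43). The genes nearest to the mean pattern of the 10 scaffolds, among 12242 genes with a mean above 100 normalized counts, were Katnal1 (RMS 0.02, 10496 bases), Rimbp2 (0.02, 8646 bases) and Trim37 (0.02, 7214 bases), where the median gene was at 0.23. All of them share the libraries and their length-related differences with the scaffolds.

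Promoter sequence was read for the scaffolds because p300 and CBP are known as coactivators of CREB, the factor that binds the cAMP response element. RefSeq windows of 300 bases on GRCm38.p6, from 250 bases before a transcription start to 50 after it, were at hand for 8 of the 10 genes, with 18 windows in all, and Shank1 and Shank2 had no entry. The core of that element, TGACG, on either strand, was in 3 windows, 1 each of Dlg3, Dlg4 and Homer1, against 20.8% of 32851 windows of all genes. The full palindrome TGACGTCA, which contains the core, was in 0 of 18 windows against 1.79%. A window of Homer1 held 3 cores, as did 1.03% of all windows (3 or more), starting 56, 40 and 14 bases before the start. It lies at chr13:93303507-93303806 (+ strand, GRCm38) and is shown, with the window of Shank3 at chr15:89499358-89499657 (+ strand), because the former holds the most cores among the scaffolds and the latter none. Capitals mark TGACG.
Homer1: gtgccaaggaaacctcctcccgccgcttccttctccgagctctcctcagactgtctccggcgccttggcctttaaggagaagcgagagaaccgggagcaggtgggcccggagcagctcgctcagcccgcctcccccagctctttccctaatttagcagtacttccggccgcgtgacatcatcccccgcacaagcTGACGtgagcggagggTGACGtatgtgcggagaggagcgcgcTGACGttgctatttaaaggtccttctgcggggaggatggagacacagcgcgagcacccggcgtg
Shank3: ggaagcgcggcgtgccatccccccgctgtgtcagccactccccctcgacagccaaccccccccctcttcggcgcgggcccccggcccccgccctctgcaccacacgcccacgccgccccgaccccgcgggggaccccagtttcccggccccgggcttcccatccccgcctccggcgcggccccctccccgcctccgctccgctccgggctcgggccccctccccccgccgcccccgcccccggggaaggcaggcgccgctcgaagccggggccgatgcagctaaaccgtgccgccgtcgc
The Shank3 window was 81% G and C. It held 4 matches to GGGCGG, all on the opposite strand and so read as CCGCCC in the sequence shown. GGGCGG, a motif of SP1, was found on either strand in 7 of the 18 windows and in 35.7% of all windows. The log2 fold changes of Homer1 and Shank3, given above, were -0.15 and -0.17. A match of letters is a description and not a bound site.

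Of other genes of the density, 39 partners were read from the same DESeq2 fit. Their fold changes were below 0 for 34 and above 0 for 5, with a median of -0.19 against -0.05 over all genes tested. p300-ifKO replicate 1 was the lowest library for 31, against 37.8% of all genes with a mean above 10 normalized counts and 80.3% of those over 9000 bases. The partners are long, with a median exonic length of 9145 bases against 2402 for all genes tested. Among the 500 genes nearest in length to each partner, the median share below 0 was 82% and the median of their median fold changes was -0.13, and 24 partners lay below and 15 above the median of their own neighbours. DESeq2 called 0 of the 39, against the same background of 0.0061%. Neither DESeq2 nor edgeR gave any of them an unadjusted p under 0.05, against 1.32% and 2.3% of all genes. Among 4 SAPAP linkers, which join Dlg to Shank, the median was -0.15, from Dlgap2 at -0.36 (SE 0.31) to Dlgap3 at 0.07 (SE 0.12). Among 17 signalling and actin partners it was -0.19, from Arhgap32 at -0.35 (SE 0.24) to Begain, a PSD-95-binding protein, at 0.23 (SE 0.15). Among 13 other PDZ and MAGUK scaffolds it was -0.17, from Lin7a at -0.70 (SE 0.39) to its paralog Lin7b at 0.28 (SE 0.23). The 5 Homer ligands, receptors and calcium channels that carry the Homer-binding motif, had a median of -0.22, from Ryr2, a calcium release channel, at -0.32 (SE 0.22) to Trpc1 at -0.02 (SE 0.20).

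Lin7a had 220, 201 and 326 normalized counts in Control mice and 75.2, 254 and 128 in p300-ifKO mice, the order of mice seen for the Shank genes, in a gene of 3311 exonic bases. Lin7b, at 1463 bases, had 564, 614 and 498 in Control mice and 920, 544 and 566 in p300-ifKO mice, and was thus highest where Lin7a was lowest. Genes of 1000 to 2000 bases were also high in that library, with a median log2 ratio of 0.40. The log2 fold change of Lin7b was near the median of genes of like length (0.28 against 0.22), whereas that of Lin7a was far from it (-0.70 against 0.07). Without p300-ifKO replicate 2, DESeq2 called 12 of the 39 partners lower and 0 higher, against the background of 4% lower in that fit. Among genes of like length the share called lower was 0% to 21.6% from partner to partner, with a median of 7.37%. The 12 included Dlgap2, Arhgap32, Lin7a and Ryr2.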

How the data were processed

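RNA-seq of single-end 50 bp reads was made by the authors from hippocampal total RNA of individual mice. Per the submitters' processing notes and the methods of the study, reads were checked with FastQC (version 0.11.8), trimmed with Trim Galore (version 0.6.4) and aligned to GRCm38 with STAR (version 2.6.1). Reads above a mapping quality limit were counted on Ensembl exons with Rsubread. The deposited table holds these raw counts per gene, with an exonic length, and the strand setting is not given in the sources used here. Reads with several matches are removed by the quality limit, but at most 1.06% of the 50-base stretches of a scaffold gene recurred in another gene. Counts add all isoforms of a gene.

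The sample titles gave each library its group and replicate number. Of 55471 identifiers, 55230 (99.57%) matched GENCODE M21 on GRCm38, from which symbols, coordinates and GC content were read. Exonic length was as deposited, which equalled that of M21 for 99.11% of matched genes and for 8 of the 10 scaffolds (Dlg2, 16280 bases in M21, and Shank3, 9189, differed). Promoter windows came from RefSeq (GRCm38.p6). No per-sample column was left unused (0).

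The main comparison was the DESeq2 Wald test (version 1.42.0, R 4.3.3; the study names version 1.30.1) without covariates, two-sided, with default filters, unshrunken fold changes and Benjamini-Hochberg adjustment at 0.05. Intervals are 95% Wald intervals. Alternatives were edgeR (version 4.0.16) quasi-likelihood with and without filterByExpr, limma-voom (version 3.58.1), TMM factors, at least 10 counts in at least 3 libraries, Cook or independent filtering off, a replicate block, 1 surrogate variable (sva, version 3.50.0), length and GC offsets (mgcv, version 1.9.3) and each library left out. For genes of like length, 200 or 1000 neighbours, a mean above 100 normalized counts, neighbours in length and GC content, and fold changes with the surrogate variable were tried, and for the order of levels TPM and length less the read length. The neighbours in length and GC content and the use of the surrogate variable with neighbours were chosen after seeing the data. Fits were tested on simulated counts.

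The genes, the partner list and the marker lists were chosen with earlier results of these data known. Genes named are the 10 scaffolds, Ep300, Crebbp and Esr1, the partners with the highest and lowest fold change in each of 4 groups, and the 3 genes nearest to the mean pattern of the scaffolds on log2(normalized count + 1).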

Additional observations from a re-analysis of the deposited data

How the results depend on the processing

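With all 6 libraries kept, 10 alternatives gave 100 fold changes of scaffold genes, of which 91 kept their sign and none was called (0), with an adjusted p of 0.745 or more from DESeq2, edgeR or limma. The sign turned with 1 surrogate variable for Dlg1 (0.045), Dlg3 (0.0099), Homer1 (0.098) and Homer2 (0.034), and with length and GC offsets for Dlg1 (0.11), Dlg3 (0.029), Dlg4 (0.033), Homer1 (0.047) and Homer3 (-0.0086), and the cause was not tested. Leaving out each library in turn gave 2 to 938 genes called over the whole table, 0 to 3 scaffold genes and 0 to 12 partners, the upper value each time without p300-ifKO replicate 2. In those fits Dlg1 ranged from -0.16 to 0.0074 and Homer1 from -0.34 to 0.053, both above 0 without p300-ifKO replicate 1. Other ranges were -0.40 to -0.16 for Dlg2, -0.71 to -0.12 for Shank1, -0.63 to -0.11 for Shank2, -0.37 to -0.02 for Shank3 and -0.51 to -0.07 for Homer2, and the difference of Shank1 from genes of like length was -0.44 to -0.08. The median of the partners was between -0.35 and -0.05 with a library left out, -0.02 with 1 surrogate variable and -0.06 with length and GC offsets. The order of the levels was the same in TPM and with the read length taken off the exonic length. Both rest on the same exonic length, so neither tests how far the order depends on it. Whether the replicate numbers pair the mice is not known. The deviations of same-numbered mice correlated at 0.26, -0.26 and 0.17 over 17070 genes. These correlations cannot decide it, since the deviations also hold the library differences that followed exonic length. The replicate block called 4 genes in place of 2, called 0 scaffold genes and turned no sign of theirs.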
